A study of Mus musculus with 9 samples.

Results

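Keratinocytes of the basal layer are held to the dermis by hemidesmosomes and by the basement membrane beneath them, and 9 genes that encode parts of this attachment were followed among the 38203 genes of the expression table. They were chosen by name for their function, with earlier results of these data known. The 9 are the integrin subunits Itga6, Itgb4, Itga3 and Itgb1, the hemidesmosome proteins Col17a1 and Dst, the laminin chains Lama3 and Lamb3, and Col7a1. Each symbol matched 1 row, and all 9 passed the filter on low values (an average above 0.1 FPKM in at least 1 genotype), as did 16897 genes in all. FPKM, the authors' fragment count per unit of transcript length and of sequencing output, can be compared between genes.

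The epidermis was profiled in 9 libraries, each from the trunk skin of a single E18.5 embryo on a mixed C57BL6/129Sv background, with the epidermis peeled from the dermis after trypsin. Esrp1 and Esrp2, paralogous splicing factors of epithelial cells, were intact in WT (n = 2). The KO embryos (n = 3) were Esrp1 -/-, Esrp2 +/+, the KH embryos (n = 2) were Esrp1 -/-, Esrp2 +/-, and the DKO embryos (n = 2) were Esrp1 -/-, Esrp2 -/-. The study describes a separate cross for each of KO, KH and DKO, of which only that for KO can give WT littermates. Between embryos of separate crosses, genotype and cross cannot be told apart. Both are germline alleles that act in every cell, each derived from 1 embryonic stem cell clone: the Esrp1 allele lost 3 internal exons through Zp3-Cre in the oocyte, and in the Esrp2 allele a LacZ and neomycin cassette replaced the gene. By their sample titles the controls are WT, but the extraction protocol lists them as Esrp2 -/-. The Esrp2 level in the libraries labelled WT was 118 and 136 FPKM, against 0.0843 and 0.0463 FPKM in DKO, so it went with the titles. It was 88.1, 88.4 and 131 FPKM in KO, and 38.6 and 89.5 FPKM in KH, where the second library overlapped KO although it carries 1 null allele. Esrp1 was at 119 and 142 FPKM in WT and between 18.2 and 55.1 FPKM in the 7 libraries of the other genotypes, a gene-level value that includes exons outside the deletion.

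The α6β4 integrin, made of Itga6 and Itgb4, is the transmembrane receptor at the core of the hemidesmosome. Outside the cell it binds laminin-332, whose α3 and β3 chains are encoded by Lama3 and Lamb3, and inside the cell its β4 tail is tied to the keratin filaments by Plec and by the epithelial product of Dst. The transmembrane collagen XVII (Col17a1) reinforces this link, the α3β1 integrin (Itga3 and Itgb1) binds the same laminin outside hemidesmosomes, and anchoring fibrils of collagen VII (Col7a1) run from the basement membrane into the dermis. Inherited loss of several of these proteins causes epidermolysis bullosa, in which the skin blisters.

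Itga6 is also alternatively spliced, and the study placed RT-PCR primers around its cassette exon, which is why this sequence is shown. Inclusion of the exon gives the α6A cytoplasmic tail and its omission the α6B tail. The forward primer lies in exon 24 of the annotated transcript that holds the exon (chr2:71849454-71849477, plus strand, GRCm38, which is mm10) and the reverse primer in exon 26 (chr2:71856039-71856060, minus strand), and both are written 5′ to 3′.
Itga6 forward primer: ctgttcttgccgggattctgatgc
Itga6 reverse primer: gggggctttgggtagtgtgagg
Matched to GENCODE M21 transcripts, the primers span 390 nt with the exon and 260 nt in the transcript that lacks it. The cassette exon (exon 25, chr2:71853534-71853663, plus strand) has 130 nt, of which the first 105 are coding. In the next line the last 30 bases of exon 24 (chr2:71849477-71849506) are in lower case and the coding bases of the cassette exon (chr2:71853534-71853638) are in capitals.
Itga6 exon junction: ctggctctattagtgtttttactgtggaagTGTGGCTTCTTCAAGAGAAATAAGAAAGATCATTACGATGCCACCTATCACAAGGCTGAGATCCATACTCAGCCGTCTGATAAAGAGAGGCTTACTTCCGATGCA
The deposited table gives 1 value for each gene and sums over such isoforms, so the levels below do not say which tail was made. The same holds for Dst, whose epithelial, neuronal and muscle products differ.

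All 9 genes were expressed in every library, in an order that spanned Col17a1 at the top and Dst at the bottom. Mean levels over the 9 libraries were 81.4 ± 24.0 FPKM for Col17a1 (SD, n = 9) and 51.8 ± 14.8 FPKM for Itga6 (SD, n = 9), which were the highest. Lamb3 (28.4 FPKM), Itgb1 (24.1 FPKM) and Col7a1 (21.8 FPKM) came next, followed by Itgb4 (16.6 FPKM), Itga3 (12.5 FPKM), Lama3 (9.90 FPKM) and Dst (5.14 FPKM). Within every one of the 9 libraries Col17a1 exceeded Itga6, Itga6 exceeded Lamb3, Col7a1 exceeded Itgb4, Itgb4 exceeded Itga3, Itga3 exceeded Lama3 and Lama3 exceeded Dst. The neighbours Lamb3 and Itgb1 kept their order in 7 libraries and Itgb1 and Col7a1 in 6, so these 3 genes were not separated beyond their spread. The genes lie on several chromosomes, among them Itgb4 (chr11:115974709-116008412) and Itga3 (chr11:95044474-95076801) on 1 chromosome, Dst (chr1:34011825-34308650) and Lamb3 (chr1:193301957-193343878) on another, and Lama3 (chr18:12334024-12583013) apart from its partner, all in mm10. No gene of the table at 1 FPKM or more overlapped a locus of any of the 9.

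No gene of the 9 was called in any comparison of genotypes, at an adjusted p below 0.05 (limma, over all tested genes) and an average FPKM that differed over 2-fold. Among all genes tested the share called was 0.728% in DKO against WT, 0.0296% in KO against WT, 0.0296% in KH against WT, 0.639% in DKO against KO, 0.426% in DKO against KH and 0% in KH against KO. In KH against KO, limma gave an unadjusted p below 0.05 to 98 higher and 87 lower genes of the 16897. None of the 9 had an unadjusted p below 0.05 in any of the 6 comparisons. In DKO against WT that p was reached by 6.15% of all genes with a higher and 7.60% with a lower level in DKO.

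The integrin of the hemidesmosome was measured first. Itga6 stood at 42.8 and 38.3 FPKM in WT, at 73.9, 43.8 and 42.8 FPKM in KO, at 67.3 and 39.9 FPKM in KH, and at 45.2 and 72.7 FPKM in DKO. A single library in each genotype without Esrp1 lay well above all others, and the remaining libraries lay near WT. DKO replicate 1 and KO replicate 2 were above both WT libraries, and KO replicate 3 and KH replicate 2 lay between them. The DKO minus WT difference was 0.49 on the log2(FPKM + 1) scale (SE 0.36, 95% interval -0.33 to 1.32, limma adjusted p = 0.558). Itgb4, its partner, stood at 12.6 and 13.4 FPKM in WT, at 24.8, 12.1 and 14.95 FPKM in KO, at 20.7 and 14.4 FPKM in KH, and at 11.8 and 24.4 FPKM in DKO. The same libraries were high, and KO and DKO overlapped WT. The DKO minus WT difference for Itgb4 was 0.37 (SE 0.40, adjusted p = 0.697 by limma).

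**Figure D1:**
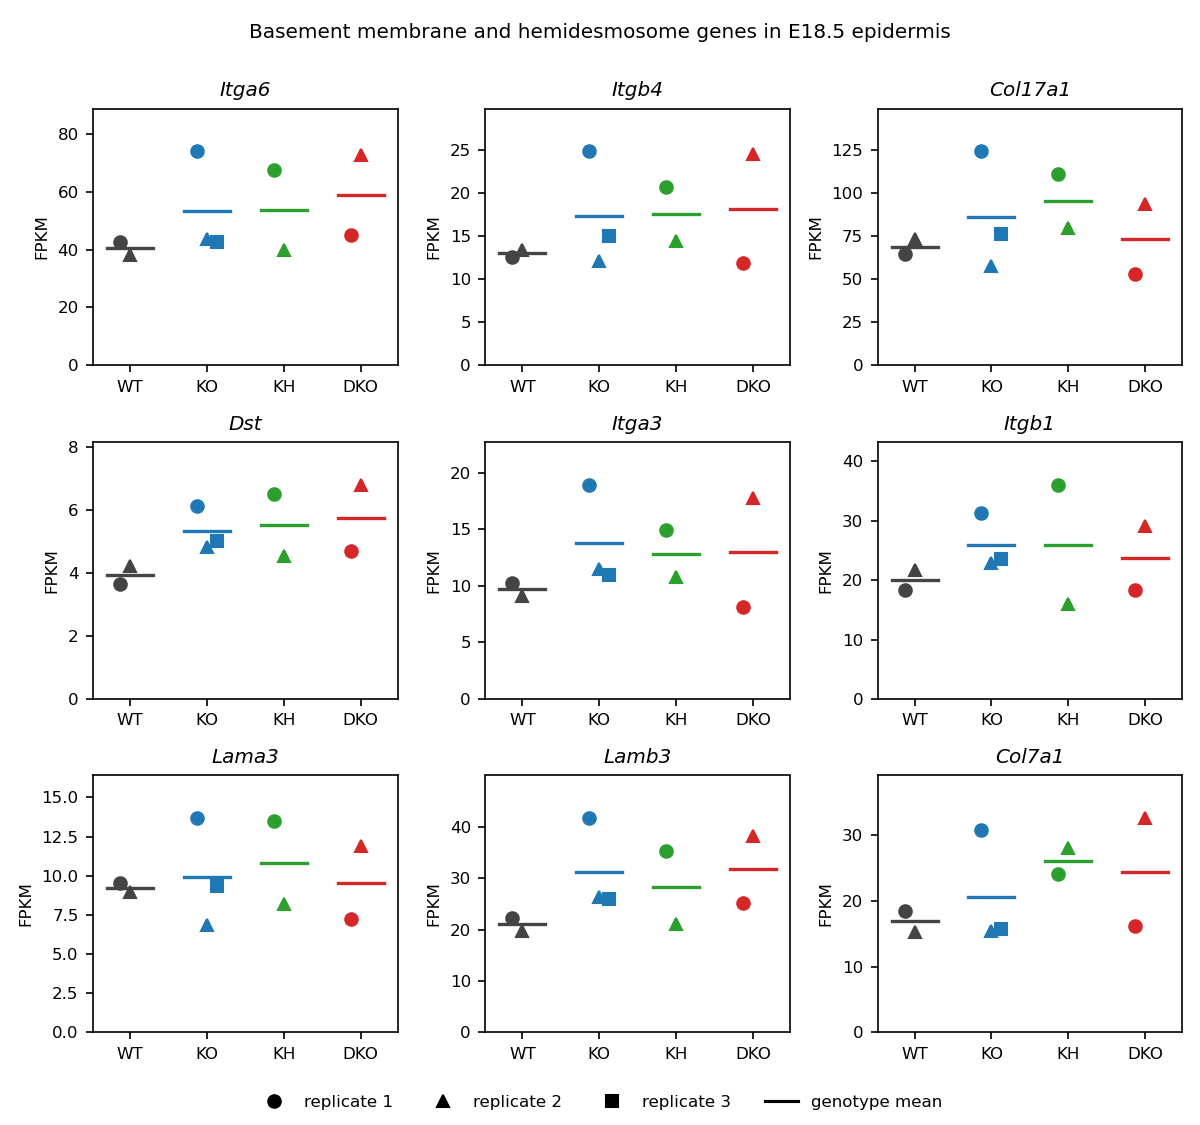
FPKM of the 9 genes (vertical axes, each from 0) in the 9 libraries by genotype (WT n = 2, KO n = 3, KH n = 2, DKO n = 2), with the replicate shown by the symbol and the genotype mean by a line. KO replicate 1, KH replicate 1 and DKO replicate 2 are the 3 highest in 8 of the 9 genes, Col7a1 being the exception.

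Col17a1 and Dst encode hemidesmosome proteins that join the integrin. Col17a1 stood at 64.5 and 73.1 FPKM in WT, at 124, 57.7 and 76.0 FPKM in KO, at 111 and 79.5 FPKM in KH, and at 52.8 and 93.5 FPKM in DKO. Its lowest value of all was DKO replicate 1, so the DKO mean of 73.2 ± 28.8 FPKM (SD, n = 2) was close to the WT mean of 68.8 ± 6.09 FPKM (SD, n = 2), with a difference of 0.033 (95% interval -0.86 to 0.92, limma). Both KH libraries exceeded both WT libraries, with a KH minus WT difference of 0.45 on the log2 scale (SE 0.39, limma adjusted p = 0.980). Dst, which encodes the plakin that links keratin to the β4 tail, stood at 3.63 and 4.22 FPKM in WT, at 6.10, 4.83 and 5.01 FPKM in KO, at 6.49 and 4.52 FPKM in KH, and at 4.70 and 6.79 FPKM in DKO. All 7 libraries without Esrp1 exceeded both WT libraries, and the share of all genes in which this held was not counted. Taken singly, 12.6% (KO), 15.3% (KH) and 27.8% (DKO) of all genes lay wholly above WT. The KO, KH and DKO minus WT differences of Dst were 0.36 (SE 0.23), 0.39 (SE 0.25) and 0.44 (SE 0.25). The lowest limma adjusted p of the 3 was 0.468, in DKO.

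The subunits of the α3β1 integrin varied more than their genotype means differed. Itga3 stood at 10.3 and 9.09 FPKM in WT, at 18.9, 11.4 and 10.9 FPKM in KO, at 14.9 and 10.8 FPKM in KH, and at 8.11 and 17.8 FPKM in DKO. KO and KH did not overlap WT, whereas the DKO libraries held both the lowest Itga3 value of the series and a value near its highest. Itgb1, the common β subunit of many integrins, stood at 18.3 and 21.7 FPKM in WT, at 31.2, 22.8 and 23.6 FPKM in KO, at 36.0 and 15.9 FPKM in KH, and at 18.4 and 29.2 FPKM in DKO. Both the highest and the lowest value of Itgb1 came from KH, a range of 2.26-fold within 1 genotype. The DKO minus WT differences were 0.30 for Itga3 (SE 0.38) and 0.21 for Itgb1 (SE 0.38), with limma adjusted p-values of 0.748 and 0.827.

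Of the laminin chains, Lama3 stood at 9.56 and 8.94 FPKM in WT, at 13.7, 6.83 and 9.35 FPKM in KO, at 13.5 and 8.18 FPKM in KH, and at 7.21 and 11.9 FPKM in DKO. Every mutant genotype had Lama3 libraries both above and below WT, and the DKO minus WT difference was 0.0061 (SE 0.36, 95% interval -0.81 to 0.83, limma). Lamb3 stood at 22.3 and 19.8 FPKM in WT, at 41.6, 26.3 and 25.9 FPKM in KO, at 35.3 and 21.1 FPKM in KH, and at 25.3 and 38.1 FPKM in DKO. All KO and DKO libraries exceeded both WT libraries for Lamb3, by 0.52 in KO (SE 0.30, limma adjusted p = 0.853) and by 0.54 in DKO (SE 0.33, limma adjusted p = 0.488). The latter was the largest DKO minus WT difference of the 9 genes.

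Col7a1, the collagen of the anchoring fibrils, was the gene whose libraries were ordered differently. It stood at 18.51 and 15.2 FPKM in WT, at 30.8, 15.4 and 15.7 FPKM in KO, at 24.0 and 28.1 FPKM in KH, and at 16.2 and 32.5 FPKM in DKO. KH replicate 2, which was among the lower libraries for Itga6, Itgb1 and Lamb3, held the third highest Col7a1 value. The KH minus WT difference of 0.60 (SE 0.40, 95% interval -0.30 to 1.50, limma adjusted p = 0.980) was the largest difference from WT that any of the 9 genes showed.

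**Figure D2:**
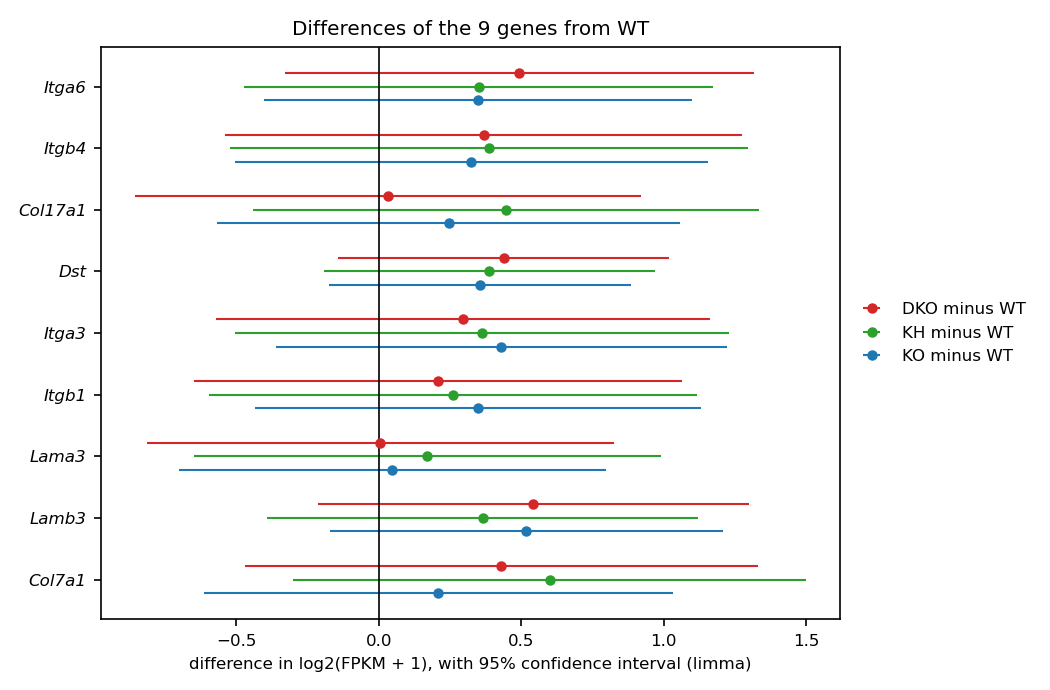
Differences of DKO, KH and KO from WT in log2(FPKM + 1) (horizontal axis) for each of the 9 genes, with 95% confidence intervals from limma. All 27 points lie above 0, from 0.0061 for Lama3 in DKO to 0.60 for Col7a1 in KH, and all intervals include 0.

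Over the 9 genes the median difference from WT was 0.37 (DKO), 0.35 (KO) and 0.37 (KH), and all 9 differences were positive in each, against medians over all genes of 0.020, 0 and 0. The 3 comparisons share the same 2 WT libraries, and the 9 genes were measured in the same libraries, so these are not independent of each other. Levels of other marker lists are given beside these. Of 6 melanocyte markers, all lay wholly above WT in DKO, where their median difference was 1.34 and 4 had an unadjusted p below 0.05 by limma, and the median was 0.55 in KO and 0.88 in KH. Of 6 spinous markers, all lay wholly below WT in DKO, with a median of -0.84, against -0.71 in KO and -0.90 in KH. Of 5 immune cell markers tested, 3 lay wholly above WT in DKO and 2 had an unadjusted p below 0.05 by limma, with medians of 0.80 (DKO), 0.52 (KO) and 0.80 (KH). The median was 0.46 (DKO), 0.31 (KO) and 0.43 (KH) over 7 hair follicle markers, and -0.43 (DKO), -0.48 (KO) and -0.51 (KH) over 6 markers of the granular and cornified layer. Over 6 basal keratinocyte markers it was 0.27 (DKO), 0.38 (KO) and -0.014 (KH), and 3 lay wholly above and 2 wholly below WT in DKO. Over 9 dermal fibroblast markers it was 0.022 (DKO), 0.34 (KO) and 0.11 (KH). None of these markers was called, and their part in the levels of the 9 genes was not tested. Every DKO library exceeded every WT library in 3 genes (Lamb3, Dst and Itga6), as it did in 27.8% of all genes. In KO this held for 4 genes (Lamb3, Itga3, Dst and Itgb1; 12.6% of all genes) and in KH for 5 (Itga3, Dst, Itgb4, Col7a1 and Col17a1; 15.3% of all genes). None of the 9 lay wholly below WT in DKO, where 26.4% of all genes did. The intervals of the differences reached as far as 1.50 upwards and 0.86 downwards on the log2 scale, so 2 or 3 embryos a genotype left changes within these limits unresolved. Between the genotypes without Esrp1, the 9 differences ran from -0.21 to 0.22 in DKO against KO, from -0.41 to 0.18 in DKO against KH and from -0.15 to 0.39 in KH against KO, with medians of 0.025, -0.050 and 0.032.

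The positive direction rested on single libraries for most of the genes. Without DKO replicate 2, the DKO minus WT difference was negative in 6 of the 9 genes: Col17a1 (-0.37), Lama3 (-0.32), Itga3 (-0.23), Itgb4 (-0.13), Itgb1 (-0.11) and Col7a1 (-0.052). It stayed positive in Itga6 (0.16), Dst (0.21) and Lamb3 (0.25). Without KO replicate 1, the KO minus WT difference was negative in Lama3 (-0.19), Col7a1 (-0.10) and Col17a1 (-0.053). It stayed positive but was smaller in Itgb4 (0.047), Itga6 (0.095), Itga3 (0.19), Itgb1 (0.21), Dst (0.27) and Lamb3 (0.30). Without KH replicate 1, the KH minus WT difference was negative in Itgb1 (-0.31), Lama3 (-0.16) and Itga6 (-0.018). The differences of Dst from WT remained positive in all 3 genotypes whichever single library was left out, between 0.17 and 0.66, and so did those of Lamb3, between 0.0087 and 0.83.

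The variation within genotypes was shared by the genes, an observation made after their values were seen. KO replicate 1, KH replicate 1 and DKO replicate 2 held the 3 highest values in 8 of the 9 genes, as they did in 9.49% of all genes tested. After each library was rescaled to TPM, which sums to the same total in every library, this was so in 9 of 9 members and 25.5% of all genes. These 3 libraries had the lowest sums of FPKM, so that rescaling raised them against the others and neither number could fall. After correction for transcript length it was so in 8 of 9 members and 11.9% of all genes. Between 51.7% (Dst) and 95.8% (Lama3) of the variance over libraries lay within genotypes, against a median of 65.7% over genes averaging at least 1 FPKM. In WT the higher library exceeded the lower by 1.06-fold to 1.22-fold, and the highest exceeded the lowest by 1.26-fold to 2.15-fold in KO, 1.17-fold to 2.26-fold in KH and 1.45-fold to 2.19-fold in DKO.

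Other measures moved with these libraries. They had the 3 lowest sums of FPKM over all genes (713318 in KH replicate 1, 734747 in KO replicate 1 and 771857 in DKO replicate 2, against 867380 to 1130713 in the others). Markers of the basal layer, where the 9 genes act, were highest in the same libraries for 3 of 6 genes (Krt5 reached 3896, 3457 and 3284 FPKM there and 1676 to 2587 FPKM in the others), as were those of the hair follicle for 4 of 7. Other basal markers did not follow this order in full. Krt15 was at 659 FPKM in KO replicate 1, 588 FPKM in KH replicate 1 and 288 FPKM in DKO replicate 2, its lowest value. It was at 484 to 676 FPKM in the other libraries without Esrp1 and at 990 and 1109 FPKM in WT, so every mutant library lay below WT. Trp63 had its 2 highest values in KO replicate 1 (66.6 FPKM) and KH replicate 1 (71.4 FPKM). In DKO replicate 2 (47.8 FPKM) Trp63 was below both WT libraries (53.6 and 49.9 FPKM). Markers of the granular and cornified layer were lowest there for 3 of 6, with Lor at 2960, 1973 and 2645 FPKM against 4398 to 7007 FPKM, and those of the spinous layer for 2 of 6, as were 9.37% of all genes. In bulk tissue a change in the share of basal cells and a change in RNA per cell cannot be told apart. Dermal fibroblast markers were highest there for 3 of 9 tested, and their summed level ran from 117 to 124 FPKM (WT), 139 to 234 FPKM (KO), 90.2 to 221 FPKM (KH) and 99.7 to 148 FPKM (DKO). Of its 10 genes, 6 exceeded 1 FPKM in at least 1 library. The most abundant were Dcn, at 42.3 to 136 FPKM with 136 and 135 FPKM in KO replicate 1 and KH replicate 1, and Sparc, at 38.0 to 83.0 FPKM with 83.0, 81.6 and 72.3 FPKM in the 3 libraries. Outside KO replicate 1, the dermal collagens Col1a1, Col3a1 and Col1a2 did not exceed 0.290, 0.966 and 2.24 FPKM, and in that library they reached 2.65, 5.39 and 4.69 FPKM. Further basement membrane zone genes were highest in the 3 libraries for 9 of 20, and further integrin subunits and adhesion adaptors for 4 of 12. Melanocyte markers were so for 2 of 6, and Schwann cell and neuron markers for 1 of 4. The counts were 0 of 5 for immune cells, 0 of 3 for skeletal muscle and 0 of 2 for endothelium, beside 9.49% of all genes. The part of any of these measures in the levels of the 9 genes was not tested.

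**Figure D3:**
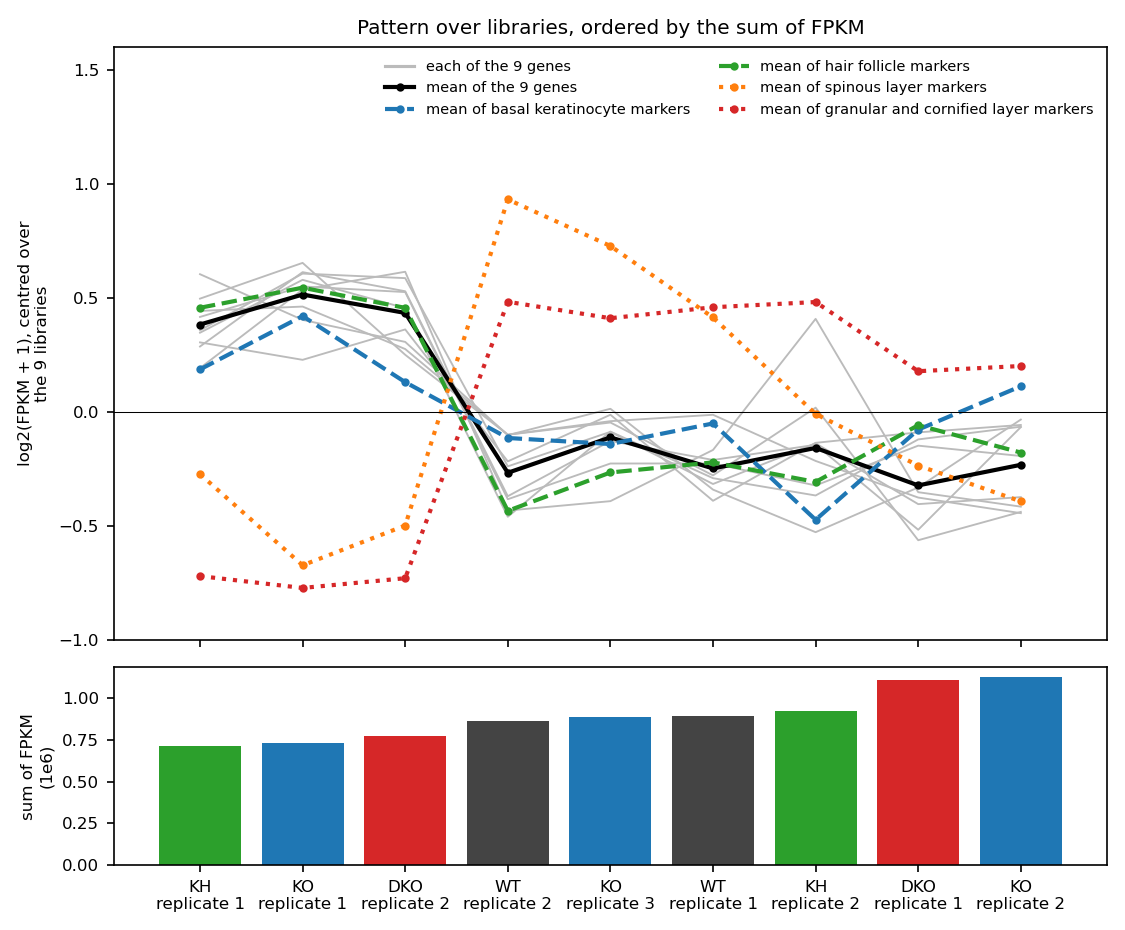
Upper panel, log2(FPKM + 1) centred over the 9 libraries for each of the 9 genes (grey), their mean (black) and the means of 4 marker lists. Lower panel, the sum of FPKM of each library in units of 1e6, coloured by genotype and in ascending order. The mean of the 9 genes is 0.38, 0.52 and 0.43 in the first 3 libraries and between -0.32 and -0.11 in the other 6, while the granular and cornified markers lie between -0.77 and -0.72 in the first 3.

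Ratios of partner chains within a library remove what raises both chains alike. In all, 5 pairs were tested in the 6 comparisons, of which the 3 pairs within the 9 genes are given, and they were chosen after the levels had been seen. Lamb3 to Lama3 stood at 2.34 and 2.21 in WT, at 3.05, 3.85 and 2.77 in KO, at 2.62 and 2.59 in KH, and at 3.50 and 3.21 in DKO. The ratio exceeded both WT libraries in all 7 libraries without Esrp1, with a mean of 2.27 ± 0.090 for WT (SD, n = 2), 3.22 ± 0.56 for KO (SD, n = 3), 2.60 ± 0.024 for KH (SD, n = 2) and 3.35 ± 0.21 for DKO (SD, n = 2). The two-sided exact permutation p was 0.333 for DKO, 0.2 for KO and 0.333 for KH against WT, which are the smallest these group sizes allow, and all were 1 after Benjamini-Hochberg adjustment over the 30 tests. After length correction the ratio was 2.36 and 2.40 in WT and 2.56 to 3.68 in the other libraries, and it still did not overlap.

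Itga6 to Itgb4 ran from 2.77 to 3.83 and Itga3 to Itgb1 from 0.413 to 0.678, and in both the WT libraries overlapped every other genotype.

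**Figure D4:**
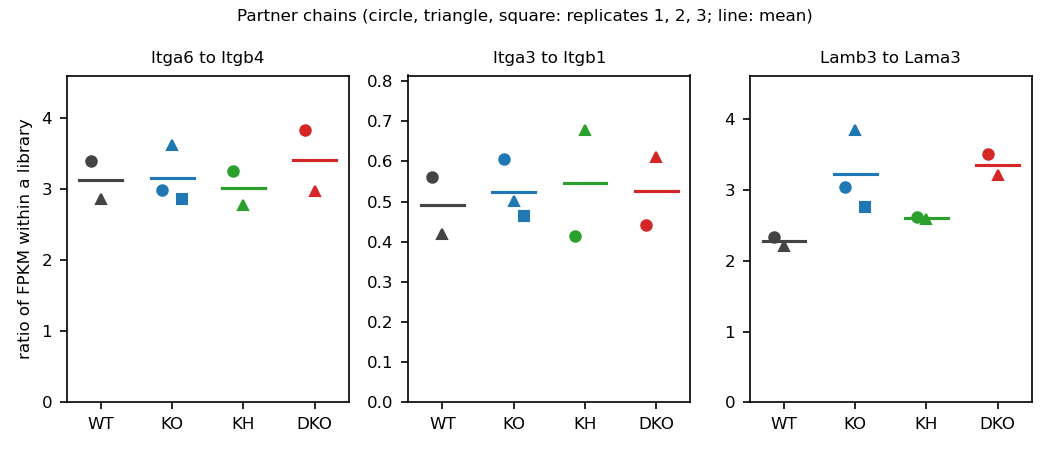
Ratio of FPKM within a library (vertical axes, each from 0) for 3 pairs of partner chains by genotype (WT n = 2, KO n = 3, KH n = 2, DKO n = 2), with the mean as a line. Lamb3 to Lama3 is 2.21 to 2.34 in WT and 2.59 to 3.85 in the other libraries, while the integrin pairs overlap.

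The remaining genes of the basement membrane zone were examined as a list of 20, and none was called in DKO against WT. Of these, 3 had an unadjusted p below 0.05 with a higher level in DKO and 0 with a lower one, and 8 lay wholly above and 2 wholly below WT, beside 6.15%, 7.60%, 27.8% and 26.4% of all genes. The median difference was 0.22, against 0.020 over all genes. The difference farthest from 0 in the list was that of Dag1, which encodes dystroglycan and was picked out after its value was seen, at 17.8 and 27.9 FPKM in WT and 5.93 and 14.2 FPKM in DKO (-1.19, SE 0.70, limma adjusted p = 0.475). Cd151, a tetraspanin that associates with laminin-binding integrins, stood at 18.2 and 18.47 FPKM in WT and at 28.8 and 32.5 FPKM in DKO, a difference of 0.71 (SE 0.27, limma adjusted p = 0.308). Hspg2, which encodes the proteoglycan perlecan, stood at 14.9 and 13.3 FPKM in WT and at 21.7 and 33.8 FPKM in DKO, a difference of 0.90 (SE 0.38, limma adjusted p = 0.349). Bmp1, a protease that processes laminin and procollagen chains, stood at 13.2 and 10.6 FPKM in WT and at 19.6 and 22.9 FPKM in DKO, a difference of 0.79 (SE 0.28, limma adjusted p = 0.270). For all 3 genes the lower DKO library exceeded the higher WT library. Plec, the keratin linker that partners Dst, stood at 14.4 and 16.7 FPKM in WT and at 11.5 and 16.0 FPKM in DKO, a difference of -0.18 (SE 0.25, limma adjusted p = 0.765). Of 12 further integrin subunits and adhesion adaptors, limma called none in DKO against WT and gave none an unadjusted p below 0.05, and the median difference was 0.18.

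By the root mean square difference of centred log2(FPKM + 1) over the 9 libraries, the genes nearest to Itga6 among 12188 that averaged at least 1 FPKM were Hip1 (0.041), Tmem184b (0.063) and Tcf3 (0.069). Their mean levels were 1.36, 5.54 and 30.8 FPKM. The scale understates changes of low genes, so a like value in Hip1 stands for a larger fold change than in Itga6. Lamb3 was the nearest of the 9 genes themselves (0.081), and Col7a1 the farthest (0.28). The genes nearest to the mean pattern of the 9 were Vezf1 (0.051) and Boc (0.059).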

How the data were processed

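Per the labels and the study's methods, the authors mapped stranded, poly(A)-selected paired reads with TopHat 1.4.1 to mm10 and Ensembl release 72, and the deposited FPKM per gene came from Cuffdiff 2.2.0; its scaling options are not given in the sources used here. FPKM hold no counts, so the fragments behind each value are not known and no counting interval could be given; the read totals that the study states were not used here. Columns of genotype means were not used. The replicates are single embryos.

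The members and gene lists were chosen with earlier results of these data known. Values were analysed as log2(FPKM + 1), which understates changes of low genes, with limma 3.58.1 in R 4.3.3 (4 genotype means over 9 libraries, 5 residual degrees of freedom, eBayes with trend). Genes averaging above 0.1 FPKM in at least 1 genotype were tested with Benjamini-Hochberg adjustment, and called at an adjusted p below 0.05 and over 2-fold. The fit was run on simulated data in which genes and libraries varied independently. That run does not cover the variation shared between genes that these libraries show. Genes named beyond the members were Plec, Cd151, those of 2 lists that the comparison of DKO with WT called or gave an unadjusted p below 0.05, Dag1 and single markers of the layers and dermis (chosen after their values were seen), and the nearest patterns. Alternatives were another pseudocount, other filters, only the genotypes compared, no trend, TPM, median ratio scaling, arrayWeights, a replicate block, length correction (loess, span 0.5), no fold threshold and each library left out. Length correction used the longest GENCODE M21 transcript, a choice made after median lengths had been run and seen. Ratios used exact permutation tests in Python 3.11.15 with scipy 1.17.1. Splicing was not analysed here, and some results that the rule on named genes would give are not reported here.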

Additional observations from a re-analysis of the deposited data

How the results depend on the processing

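No call was gained among the 9 genes in any of the 6 comparisons under the alternatives or with any library left out. Of their differences from WT, 321 kept their sign and 3 reversed with all libraries kept: in DKO against WT, TPM gave Col17a1 -0.037 and Lama3 -0.053, and correction by median transcript length, added after seeing the data, gave Col17a1 -0.033. The sizes moved more. With all libraries kept, Itgb1 ran from 0.14 to 0.79 in DKO against WT and from 0.32 to 0.92 in KO against WT. Col17a1 ran from -0.037 to 0.50 and from 0.20 to 0.78 in the same comparisons. With each library left out, 229 kept their sign and 14 reversed. The ranges in DKO against WT were -0.13 to 0.86 for Itgb4, -0.37 to 0.44 for Col17a1, -0.23 to 0.82 for Itga3, -0.11 to 0.53 for Itgb1, -0.32 to 0.33 for Lama3 and -0.052 to 0.91 for Col7a1. In KO against WT they were -0.053 to 0.49 for Col17a1, -0.19 to 0.27 for Lama3 and -0.10 to 0.37 for Col7a1, and in KH against WT -0.018 to 0.72 for Itga6, -0.31 to 0.82 for Itgb1 and -0.16 to 0.50 for Lama3. Besides DKO replicate 2, leaving out WT replicate 1 turned Col17a1 to -0.056 and WT replicate 2 turned Lama3 to -0.037 in DKO against WT.

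Counts over all genes moved more. In DKO against WT (123 calls) they were 41 with no filter, 400 with only the 2 genotypes and 556 with arrayWeights. In KO against WT (5) they were 3 with a pseudocount of 0.1, 2 with no filter, 1 with a filter at 1 FPKM, 1 without trend, 10 with arrayWeights and 3 with either length correction. In KH against WT (5) they were, in that order, 2, 2, 1 and 1, then 1 with only the 2 genotypes, 3 with length correction and 2 with its median form. No filter gave 49 in DKO against KO (108) and 34 in DKO against KH (72), where only the 2 genotypes gave 33. In KH against KO (0) a pseudocount of 0.1, TPM and median ratio scaling gave 1 each and only the 2 genotypes 5. Leaving out 1 library gave 54 to 152, 0 to 17, 1 to 33, 62 to 130, 43 to 102 and 0 to 21 calls in DKO against WT, KO against WT, KH against WT, DKO against KO, DKO against KH and KH against KO. The cause was not tested.

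The replicate numbers of the sample titles did not pair the samples, since same-numbered libraries correlated from -0.599 to 0.490 in their deviations from the genotype means. With that replicate block, calls were 67, 0, 0, 52, 43 and 0 in the same order. The sample descriptions number the libraries differently and share no number between WT and DKO. By these numbers, checked after seeing the data, the 4 pairs among KO, KH and DKO correlated from 0.347 to 0.573 and the 2 pairs with WT replicate 1 at 0.036 and -0.241, so not every pair exceeded 0.1. A replicate block by the description numbers leaves 3 libraries without a partner and 1 residual degree of freedom, and gave 0 calls in each of the 6 comparisons, where 409 to 2088 genes had an unadjusted p below 0.05 by limma. The fragments behind each value are not known, and 2 or 3 embryos a genotype limit the precision.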
